A study of Sus scrofa with 12 samples.

Results

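Noncoding RNA families of the Rfam database were read here in the small RNA of piglet small intestine around weaning. Rfam groups RNAs that share a sequence and a fold, and gives each family a number. The families described were chosen by their counts alone, as those with a count of 1 or more in every one of 12 libraries, which were 237 of the 738 Rfam numbers and of the 5850 named small RNAs in the deposited table. The table gives the number alone, so each family name below is the name that Rfam itself attaches to that number, and families whose name was not held with certainty are called by number. Detection in all libraries chose the families, so their presence in every library is not a finding.

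The pigs were of the Large White breed, written "Big white" by the submitters, and gut tissue from each of 4 groups gave 3 libraries. One group was still suckling after 21 days of age (called feeding), and the others had been weaned for 1, 3 or 7 days after 21 days of age. The labels name no treatment other than weaning and do not say that the libraries came from separate animals, so tests measure the spread between libraries, and age goes with days of weaning.

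Most noncoding RNAs of a cell work inside ribonucleoprotein particles. Small nuclear RNAs such as U6 splice messenger RNA, small nucleolar RNAs guide the chemical modification of ribosomal RNA, and ribosomal and transfer RNAs make protein. Others act in particles of their own, such as 7SK RNA, which holds back the transcription elongation factor P-TEFb, and Y RNA, which binds the protein Ro60. Rfam also holds families of microRNA precursors, the hairpins from which microRNAs are cut, and families from bacteria. A small RNA library captures short molecules, so the reads of a long RNA are most often fragments of it.

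Libraries held 24670093 to 27784417 counts, and 19.96% to 62.17% of these were reads placed in exons, introns or intergenic sequence without a small RNA name. In 2 libraries this share stood at 43.18% (weaned 3 days, replicate 1) and 62.17% (weaned 7 days, replicate 1), against 19.96% to 40.44% in the other 10. The intron share alone was 15.05% and 18.28% in the same 2 libraries. Gut epithelial microRNAs (5 of 6 listed names matched) were present in every library and marked the labelled tissue, with a summed level from 55556 normalised CPM in weaned 7 days replicate 1 to 486689 in feeding replicate 1. Normalised CPM are counts scaled to a common total of named small RNA counts (CPM) and by TMM factors, which set libraries to a common level on the assumption that most RNAs do not differ. Smooth muscle microRNAs summed to 204520 in weaned 1 day replicate 1, where the median library had 36073.

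The 237 families held 7.65% to 12.6% of all counts in a library, with a mean of 10.4% ± 1.70 (SD, n = 12). By group the share was 11.04% ± 1.83 in feeding, 10.2% ± 1.80 after 1 day, 10.4% ± 1.85 after 3 days and 9.97% ± 2.23 after 7 days of weaning (SD, n = 3 each), so the groups overlapped. The 501 Rfam numbers that were missing from at least 1 library added 442 to 2002 counts a library, and the 237 families thus held over 99.9% of the Rfam counts in each. Among the families, 18 had a mean of 1000 normalised CPM or more, 72 lay from 10 to 1000, 95 from 1 to 10, and 52 below 1. The level of a family in its highest library was 10.6 times that in its lowest in the median family, and at least 10 times in 130 of the 237 and at least 100 times in 23.

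At the edge of the choice, the families inside with the fewest counts were RF01768 with 33 counts over all libraries, RF00439 with 35, and RF00093 (SNORD18, a nucleolar guide RNA) with 40. The most counted families outside it were RF00256 (precursor of miR-196) with 1475 counts, RF00715 with 1252 and RF00425 with 602, each listed in 11 libraries and missing from weaned 7 days replicate 1. That library was the one missing for 14 of the 46 families listed in 11 libraries. Several textbook families fell outside by the same rule: 5S ribosomal RNA had 134 counts in 11 libraries, the spliceosomal RNAs U4 and U5 had 113 and 117 in 11, vertebrate telomerase RNA had 25 in 11, and U12 had 18 in 5. U11, U4atac and selenocysteine transfer RNA were listed in 3, 1 and 4 libraries.

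MicroRNA precursor families carried most of the counts. The 22 such families that were named held 60.9% ± 6.81 (SD, n = 12) of the counts of the 237 families, and 159 families left unnamed held 28.8% ± 5.96. Ribosomal RNA held 4.59% ± 3.93 and the small particles of the Y RNA and 7SK kind held 2.87% ± 1.96. Bacterial RNA families held 1.65% ± 1.03, transfer RNA 0.338% ± 0.338 and spliceosomal RNA 0.176% ± 0.165. Nucleolar RNA, in the 31 families that were named, held 0.133% ± 0.145 in the 3 families of the first list. The 28 families that were named after their values had been seen held 0.437% ± 0.283. Families left unnamed were not sorted by kind and may hold more of any kind, so nucleolar counts below cover the named families only.

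**Figure D1:**
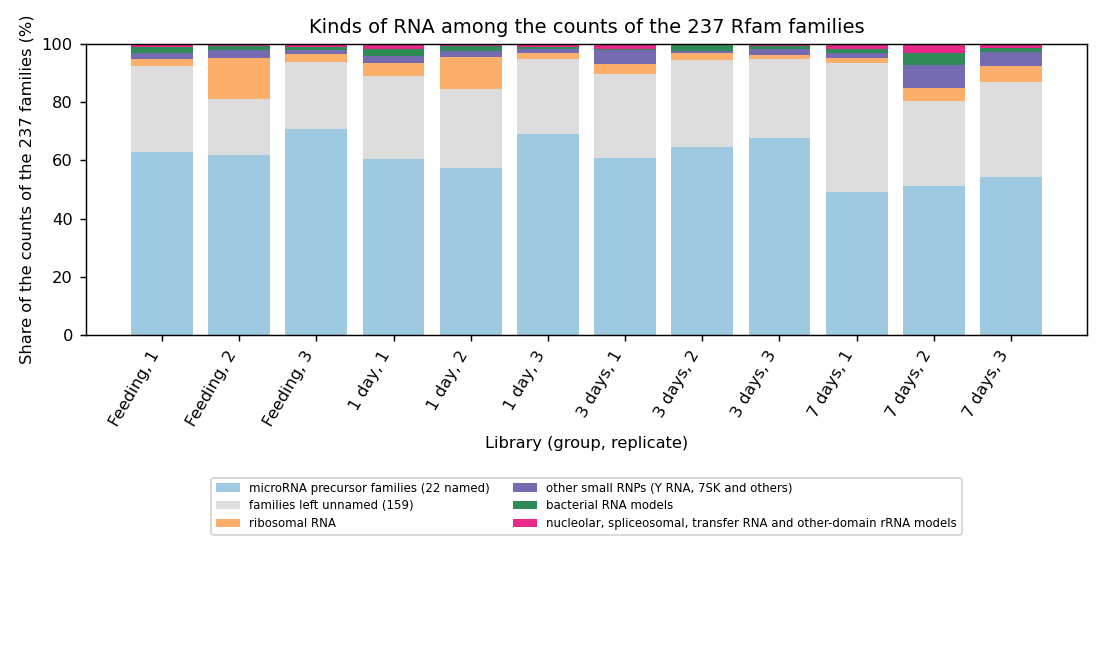
Share of the counts of the 237 families (%, y axis) taken by each kind of RNA in each library (x axis, by group and replicate), 1 bar a library. Named microRNA precursors took between 49.2% and 70.6% of every bar, and the ribosomal share stood out in feeding replicate 2 (14.03%) and weaned 1 day replicate 2 (10.9%).

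RF00241, the mir-8 family, was the most counted family over the 12 libraries. In vertebrates it holds the precursors of miR-200 and miR-141, which keep epithelial cells epithelial. Its level was 84441, 71581 and 65795 normalised CPM in the feeding libraries, 40862, 56368 and 70524 after 1 day, 69929, 78571 and 62629 after 3 days, and 9733, 52686 and 42408 after 7 days of weaning. All 3 libraries of the 7-day group lay below all feeding libraries, while the 1-day and 3-day groups overlapped feeding. The log2 difference of 7 days against feeding was -1.08 ± 0.47 (SE), with an adjusted p of 0.470 by edgeR, so it did not pass the threshold of 0.05. Without weaned 7 days replicate 1 the mean of that group was 47548 in place of 34942, against 73939 in feeding. In bulk tissue, fewer cells of a type and less RNA per cell cannot be told apart.

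RF00700, which is left unnamed, came second at 29097 normalised CPM on average. It had 50910, 20534 and 19667 in feeding, 19011, 22871 and 26063 after 1 day, 35070, 43204 and 26419 after 3 days, and 22283, 32030 and 31106 after 7 days. Feeding replicate 1 was the highest library and the rest of its group lay near the lowest, so no weaned group separated from feeding.

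The next place went to RF00257, the mir-194 family, whose microRNA is typical of gut epithelium. Feeding libraries had 26533, 11002 and 10830 normalised CPM, the 1-day libraries 9191, 3595 and 13615, the 3-day libraries 8274, 20062 and 13651, and the 7-day libraries 355, 3850 and 7895. The 7-day group lay wholly below feeding and below 3 days. Its log2 difference from feeding was -1.999 ± 0.86 (SE), with an adjusted p of 0.470 by edgeR, 0.000291 by edgeR without the filter on low counts and a range of 0.000291 to 0.730 over all alternatives. Known miR-194a and miR-194b-5p, which are counted under their own names, also had their lowest library in weaned 7 days replicate 1, at 459 and 1647 normalised CPM, where their medians over 12 libraries were 18547 and 103690.

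RF00130, the mir-192 family, is of the same epithelial kind but had another profile. It stood at 2881 to 11151 normalised CPM in 9 libraries, and at 138 in feeding replicate 2, 11.3 in weaned 3 days replicate 1 and 7.995 in weaned 7 days replicate 1. Known miR-192 was 113611, 113108 and 52091 in those 3 libraries, where its median over all 12 was 100439. The microRNA of the same name was thus above its median in 2 of the 3 and below it in weaned 7 days replicate 1. Known miR-215, also of the gut epithelial list, was 2862, 2009 and 5.94 in those 3 libraries, where its median was 1771. For 7 days against feeding the family had a log2 difference of -1.65 ± 1.87 (SE), with an adjusted p of 0.845 by edgeR, 0.0121 by edgeR without the filter on low counts and a range of 0.0121 to 0.956 over all alternatives. These 3 libraries had the 3 largest shares of reads in exons, introns and intergenic sequence, 40.44%, 43.18% and 62.17%. Whether that share has a part in the low values was not tested, and the rule by which a read was given to a family or to a known microRNA is not given in the sources used here.

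RF00702 and RF00701, both unnamed, showed drops of the same kind. RF00701 had 807, 23.3 and 477 normalised CPM in feeding, 507, 760 and 834 after 1 day, 11.4, 815 and 720 after 3 days, and 10.4, 27.7 and 29.8 after 7 days. RF00702 had 986, 6.10 and 214 in feeding, 468, 446 and 719 after 1 day, 2.92, 1279 and 1138 after 3 days, and 25.2, 4.43 and 6.37 after 7 days. Both families were low in the whole 7-day group, but also in feeding replicate 2 and weaned 3 days replicate 1, so the 7-day group overlapped feeding. For RF00701 the log2 difference of 7 days against feeding was -4.27 ± 1.37 (SE), with an adjusted p of 0.470 by edgeR, 4.30e-09 by edgeR without the filter on low counts and 0.0144 by DESeq2, and a range of 4.30e-09 to 0.575 over all alternatives.

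Some of the 12 most counted families shared their highest library. RF00076, RF00464 and RF00244 (the mir-181, mir-92 and mir-26 families) averaged 6726, 4974 and 4775 normalised CPM, and the unnamed RF00642 averaged 4070. In all 4 the highest library was weaned 7 days replicate 1, at 17676, 10075, 8661 and 9042. With that library left out, the 7-day means were 5209, 4932, 3662 and 2699, against 5954, 4078, 4681 and 3411 in feeding. RF00731, unnamed, was 870, 1225 and 2114 in feeding, 2313, 2246 and 2421 after 1 day, 582, 1239 and 1097 after 3 days, and 2261, 1084 and 1243 after 7 days. All 3-day libraries of it lay below all 1-day libraries, at a log2 difference of -1.26 ± 0.43 (SE) and an adjusted p of 0.578 by edgeR.

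**Figure D2:**
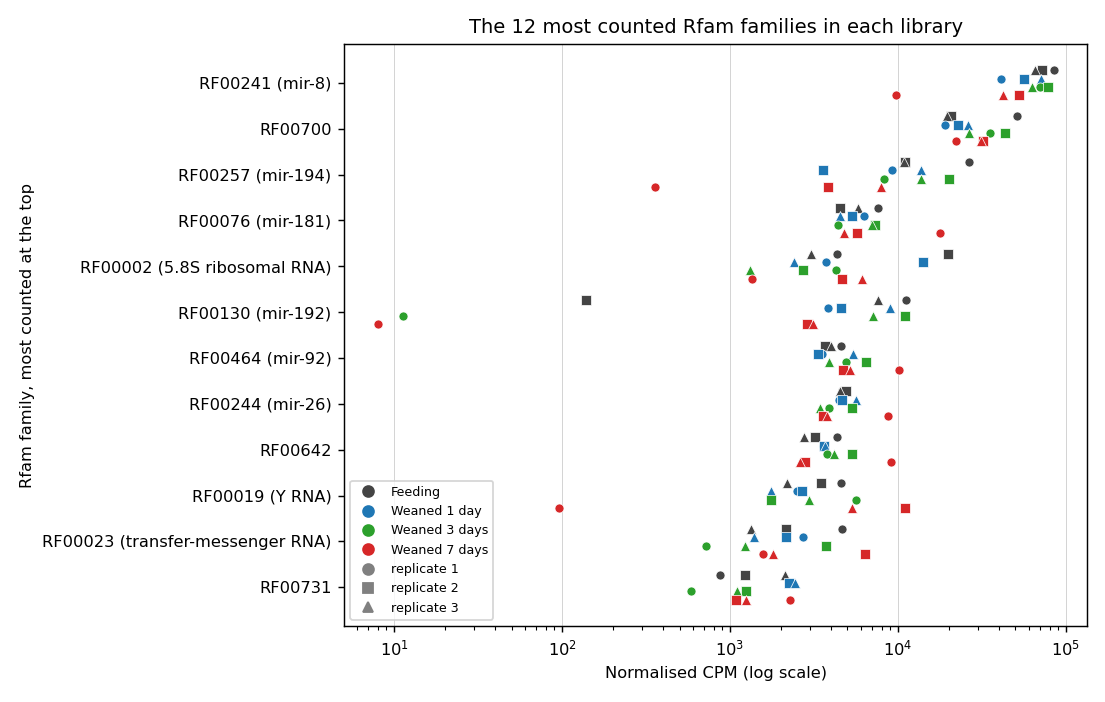
Normalised CPM (log x axis) of the 12 most counted families (y axis) in each library, 1 point a library, coloured by group and shaped by replicate. Weaned 7 days replicate 1 is the lowest point for mir-8, mir-194, mir-192 and Y RNA and the highest for mir-181, mir-92, mir-26 and RF00642.

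A few other families, microRNA precursors except for the unnamed RF00644, stood apart in 1 or 2 libraries. They were picked out after their values had been seen. RF00446 (mir-133) and RF00103 (mir-1), families of muscle microRNAs, were 229 and 10.9 normalised CPM in weaned 1 day replicate 1. RF00446 was 26.6 to 72.4 in 10 other libraries and 219 in weaned 7 days replicate 1, whereas RF00103 was at most 2.505 in the other 11. Known miR-133a-3p and miR-1 were highest in weaned 1 day replicate 1 as well, at 946 and 205, as was miR-143-3p of smooth muscle at 200148. RF00254 (mir-16) was 2647 normalised CPM in weaned 7 days replicate 1 and 252 to 474 in the other 11 libraries. RF00644, unnamed, was 9028 in the same library and 691 to 1218 elsewhere.

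Ribosomal RNA was led by RF00002, the 5.8S RNA of the large ribosomal subunit. It was 4359, 19973 and 3052 normalised CPM in feeding, 3729, 14161 and 2394 after 1 day, 4293, 2728 and 1323 after 3 days, and 1344, 4636 and 6080 after 7 days of weaning. Feeding replicate 2 and weaned 1 day replicate 2 stood above all others, and every weaned group overlapped feeding. For 3 days against feeding its log2 difference was -1.71 ± 0.88 (SE), with an adjusted p of 0.565 by edgeR, 0.0220 by edgeR without the filter on low counts and a range of 0.0220 to 0.996 over all alternatives. RF01960, the small-subunit RNA, ranged from 575 to 1989. RF02543, the large-subunit RNA, was 95.7, 456 and 130 in feeding, 150, 101 and 114 after 1 day, 73.2, 62.9 and 49.6 after 3 days, and 49.9, 383 and 124 after 7 days. All 3-day libraries of RF02543 lay below feeding, at a log2 difference of -1.87 ± 0.74 (SE) with an adjusted p of 0.565 by edgeR. Without feeding replicate 2 that difference was -0.99.

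Transfer RNA, RF00005, carries amino acids to the ribosome. Its level was 1154, 301 and 298 normalised CPM in feeding, 1379, 380 and 505 after 1 day, 145, 370 and 126 after 3 days, and 9.17, 1224 and 286 after 7 days. Weaned 7 days replicate 1 was the lowest library and replicate 2 of the same group was among the 3 highest, so that the group spanned nearly the whole range.

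Spliceosomal families in the choice were the U1, U2, U6 and U6atac RNAs. U6 (RF00026), the RNA at the catalytic centre of the spliceosome, was 93.9, 118 and 53.9 normalised CPM in feeding, 103, 65.3 and 87.1 after 1 day, 474, 65.2 and 82.8 after 3 days, and 754, 261 and 251 after 7 days. Every 7-day library lay above every feeding and every 1-day library, and weaned 3 days replicate 1 was high as well. The log2 difference of 7 days against feeding was 2.25 ± 0.76 (SE), with an adjusted p of 0.470 by edgeR, 0.0189 by edgeR without the filter on low counts and a range of 0.0189 to 0.575 over all alternatives. Without replicate 1 the 7-day mean was 256, against 88.7 in feeding. U6atac (RF00619), its counterpart in the minor spliceosome, was 1.14 to 1.31 in feeding and 3.88, 3.47 and 2.58 after 7 days, at a log2 difference of 1.40 ± 0.72 (SE) with an adjusted p of 0.470 by edgeR.

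U1 (RF00003), which binds the start of an intron, went the other way in the same libraries. It was 5.49 in weaned 3 days replicate 1 and 5.58 in weaned 7 days replicate 1, and 23.1 to 75.0 normalised CPM in the other 10. U2 (RF00004), which binds the branch point, ranged only from 6.87 to 21.4.

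7SK RNA (RF00100) had a profile close to that of U6. It was 170, 357 and 61.6 normalised CPM in feeding, 199, 377 and 239 after 1 day, 1766, 110 and 166 after 3 days, and 2201, 468 and 690 after 7 days. The 7-day group lay above feeding and above 1 day in every library. Its log2 difference from feeding was 2.51 ± 1.05 (SE), with an adjusted p of 0.470 by edgeR, 0.00110 by edgeR without the filter on low counts and a range of 0.00110 to 0.575 over all alternatives. The 7-day mean was 1120, and 579 without replicate 1.

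Y RNA (RF00019) had 4562, 3457 and 2178 normalised CPM in feeding, 2500, 2667 and 1751 after 1 day, 5644, 1747 and 2968 after 3 days, and 95.6, 10973 and 5328 after 7 days. The lowest and the highest library of all 12 were both in the 7-day group, and the log2 difference from feeding was 0.69 ± 1.00 (SE). Vault RNA (RF00006), part of the large vault particle of the cytoplasm, was 48.2, 46.8 and 65.8 after 7 days. It was 13.9 to 67.9 in feeding and 14.8 to 26.8 in the 1-day and 3-day libraries, so 7 days lay above both shorter times. Against 3 days the log2 difference was 1.61 ± 0.58 (SE), with an adjusted p of 0.632 by edgeR. Signal recognition particle RNA (RF00017), which brings ribosomes to the endoplasmic reticulum, was lower in all 3-day libraries (14.7 to 20.1) than in all feeding libraries (28.1 to 77.5). U7 (RF00066), which processes histone messenger RNA, ranged from 3.05 to 14.9. RNase P RNA (RF00009), which trims transfer RNA precursors, ranged from 2.48 to 12.5, and RNase MRP RNA (RF00030), which cuts ribosomal RNA precursors, from 0.208 to 1.86.

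Named nucleolar RNAs were higher on average after 7 days of weaning than in feeding in 28 of the 30 families tested. Their median log2 difference was 1.37. The median over all 2453 small RNAs tested was 0.32. Of the 30, 0 passed the threshold by edgeR, which called 0.0408% of all small RNAs. An unadjusted p under 0.05 was found by edgeR in 8 of the 30, against 9.91% of all small RNAs. Every 7-day library lay above every feeding library in 11 of the 30 families (8.68% of all small RNAs), and below in 0 (4.53%). These 8 and 11 families all came from the 27 tested families that were named after values had been seen. The 3 families of the first list gave 0 and 0, with 2 of 3 higher on average. For 3 days against feeding, 28 of 30 families were also higher, with a median of 0.92. Without weaned 3 days replicate 1, 13 of 30 were higher, with a median of -0.12. Without weaned 7 days replicate 1 the 7-day median was 0.90, and 28 of 30 families were higher. For 1 day against feeding, 17 of 30 were higher, with a median of 0.11. Since 28 of the 31 families were named with values in view, these counts are descriptions. The exon, intron and intergenic share averaged 44.57% ± 15.7 in the 7-day group and 27.86% ± 11.01 in feeding (SD, n = 3 each). Summed gut epithelial microRNAs were at 55556, 94163 and 101630 normalised CPM after 7 days and at 226632 to 486689 in feeding. The part of either in the nucleolar differences was not tested.

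The library in which a nucleolar family was highest was weaned 3 days replicate 1 for 11 of 31 families, weaned 7 days replicate 2 for 9, replicate 1 for 7 and replicate 3 for 2. Feeding libraries were highest for 0 of them. RF00016 (SNORD14) was 837 normalised CPM in weaned 3 days replicate 1, 354 in weaned 7 days replicate 1 and 39.0 to 138 in the other 10. RF00069 (SNORD24) was 181 and 99.8 in these 2 libraries and 9.18 to 35.3 elsewhere. RF00278 (SNORD50) was 102 and 76.2 there and 12.9 to 25.7 elsewhere, and RF00045 (SNORA73) was 75.2 and 65.8 there and 7.31 to 32.3 elsewhere. Most SNORD families guide the methylation and most SNORA families the pseudouridylation of target RNA. The 2 libraries are those with the largest exon, intron and intergenic share, and the part of that share in these levels was not tested.

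A second set of nucleolar families was high in other libraries. RF00088 (SNORD30) was 536 normalised CPM in weaned 7 days replicate 2, 80.0 in weaned 3 days replicate 3, 55.2 in weaned 7 days replicate 3 and 0.417 to 6.26 in the other 9. Its coefficient of variation over the 12 libraries, 264%, was the largest of the 237 families. RF00186 (SNORD101) was 44.9, 10.3 and 19.7 in the same 3 libraries and 0.318 to 3.497 elsewhere. RF00153 (SNORD62) was 30.5, 14.9 and 26.99 there and 1.14 to 3.97 elsewhere, and RF00089 (SNORD31) was 27.3, 9.60 and 18.2 there and 1.62 to 7.36 elsewhere. RF00277 (SNORD49) was 22.6, 7.73 and 3.04 there, 4.17 in weaned 7 days replicate 1, 3.20 in weaned 3 days replicate 1 and 0.464 to 1.55 in the other 7. SNORD49 lay above 1 day in all 7-day libraries, at a log2 difference of 4.09 ± 1.07 (SE) with an adjusted p of 0.441 by edgeR, and the difference was 2.61 without weaned 7 days replicate 2. By DESeq2 its adjusted p was 0.00234, with a range of 0.00234 to 0.570 over all alternatives.

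RF00071 (SNORD73) was 1.08, 0.656 and 0.574 normalised CPM in feeding, 0.947, 1.02 and 0.910 after 1 day, 3.06, 0.191 and 1.30 after 3 days, and 9.11, 3.11 and 6.498 after 7 days. The 7-day libraries were the 3 highest of all 12. Its log2 difference of 7 days against feeding was 3.01 ± 0.95 (SE), with an adjusted p of 0.470 by edgeR and 0.0494 by DESeq2, and a range of 0.0494 to 0.575 over all alternatives. U3 (RF00012), which is needed to cut the ribosomal RNA precursor, did not share the pattern. It was 2.82, 3.67 and 51.2 in feeding, 40.7, 3.25 and 40.9 after 1 day, 3.96, 41.5 and 51.6 after 3 days, and 4.12, 12.9 and 7.66 after 7 days, so that libraries of most groups were either low or high. U8 (RF00096), also of the first list, had 12 counts in each 7-day library and 1 to 8 elsewhere. Its log2 difference of 7 days against feeding was 0.78 ± 1.41 (SE), with an adjusted p of 0.958 by edgeR. RF00274 (SNORD57) was 16.7, 18.1 and 28.5 in feeding and 47.6, 70.6 and 52.2 after 7 days. Its 3-day level was 88.4, 22.6 and 47.7, at a log2 difference from feeding of 1.33 ± 0.53 (SE) with an adjusted p of 0.565 by edgeR, and of 0.74 without weaned 3 days replicate 1.

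**Figure D3:**
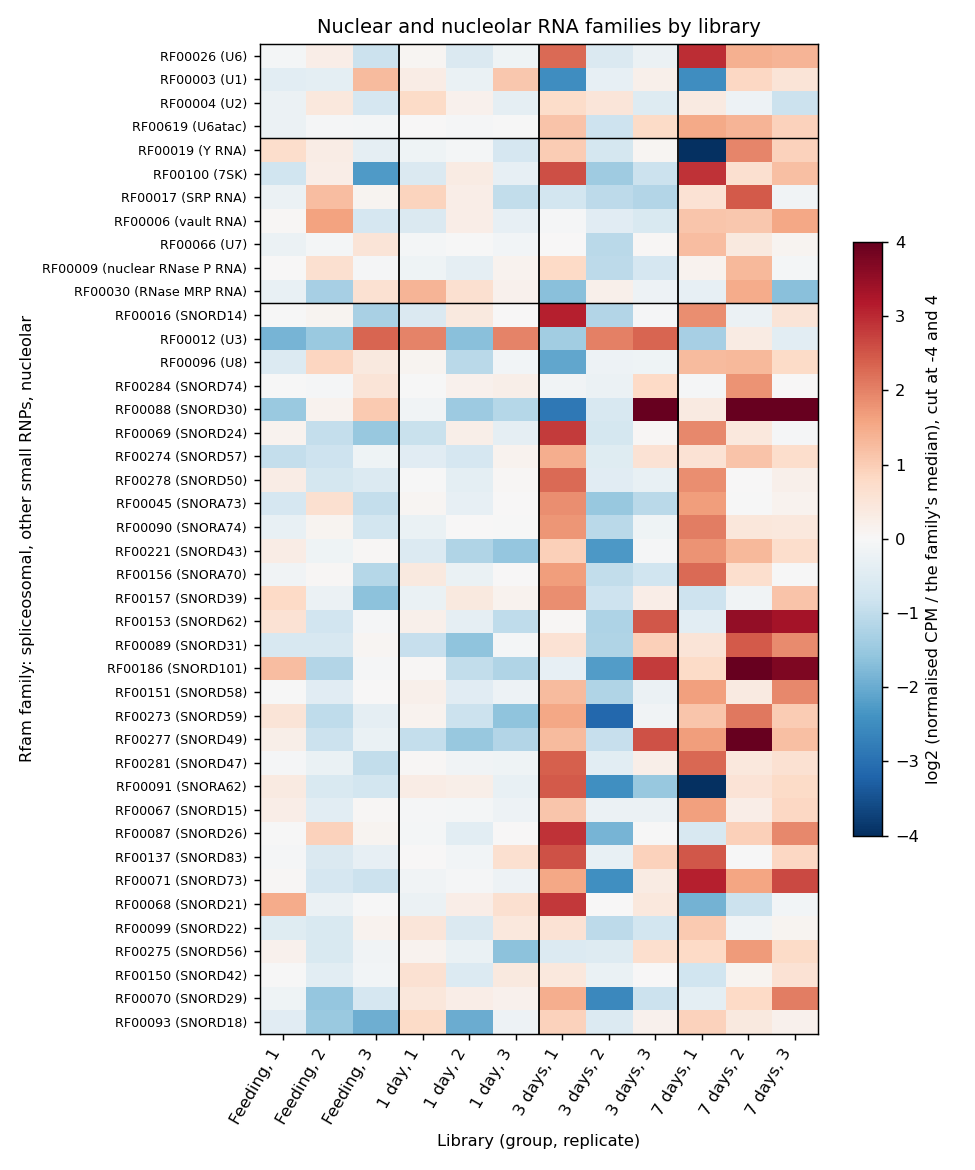
Level of each spliceosomal, small particle and nucleolar family (rows) in each library (columns), as log2 of its normalised CPM over the family's median, with colour limits at -4 and 4 and black lines between groups and between kinds of RNA. Most nucleolar rows are red in weaned 3 days replicate 1 or in 1 or more of the 7-day libraries. SNORD101 is darkest in weaned 7 days replicate 2. SNORD30 is at the upper colour limit there, in weaned 7 days replicate 3 and in weaned 3 days replicate 3.

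Families of bacterial RNA were counted in every library. RF00023 is transfer-messenger RNA, which frees stalled ribosomes in bacteria and is not known from animals. It was 4664, 2149 and 1325 normalised CPM in feeding, 2707, 2154 and 1384 after 1 day, 724, 3721 and 1230 after 3 days, and 1576, 6393 and 1805 after 7 days. Of 6 such families 4 were highest in weaned 7 days replicate 2, as were all 4 ribosomal RNA families of bacteria and archaea. RF00177, the small-subunit RNA of bacteria, was 444 in that library and 36.0 to 176 elsewhere, and RF02541, the large-subunit RNA, was 510 there and 41.4 to 155 elsewhere. Those reads may match more than 1 family, since ribosomal RNA is alike across domains of life, and a match to a family does not name a species. For the 4 ribosomal families, 7 days against feeding gave 4 of 4 higher with a median log2 difference of 1.11. Of all small RNAs 59.5% were higher, with a median of 0.32. By edgeR 0 of the 4 were called (0.0408% of all small RNAs) and 0 had an unadjusted p under 0.05 (9.91%). Groups did not overlap in 0 of them (8.68% above and 4.53% below). Their summed level was 113, 981 and 317 normalised CPM after 7 days and 224, 86.1 and 347 in feeding, so replicate 2 led the 7-day group.

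**Figure D4:**
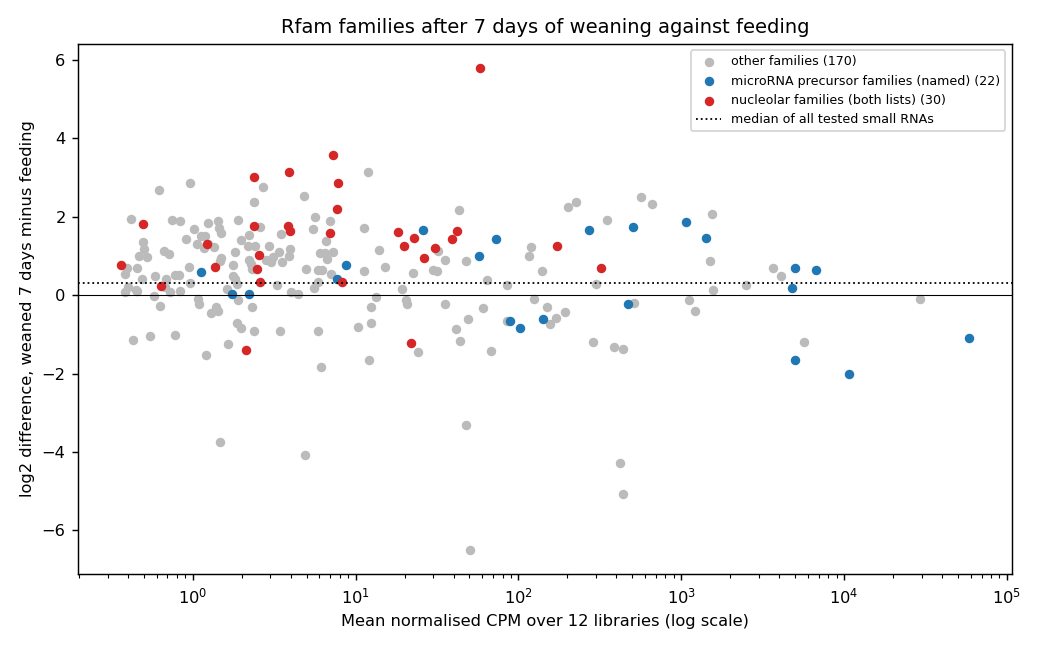
Log2 difference of 7 days of weaning minus feeding (y axis) against mean normalised CPM over 12 libraries (log x axis) for the 222 families tested, 1 point a family. Points for 28 of 30 named nucleolar families lie above 0, and the dotted line marks the median of all tested small RNAs, 0.32.

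In the tests across all small RNAs, 222 of the 237 families passed the filter on low counts. The 15 others were too low for a test, and counts over the 222 do not speak for them. Against feeding, edgeR called 0 families after 1 day, 0 after 3 days and 0 after 7 days of weaning. Over all 2453 small RNAs it called 0%, 0% and 0.0408%. At an unadjusted p under 0.05 there were 2, 6 and 37 of the 222 families, where all small RNAs gave 3.02%, 5.91% and 9.91%. DESeq2 called 0, 0 and 5 families (0.815%, 1.43% and 1.71% of all small RNAs), and limma-voom called 0 in each (0%, 0% and 0.204%). In a fit of known microRNAs and Rfam families alone edgeR called 0 families in each, with 0%, 0% and 0.182% of the small RNAs in that fit. Without the filter on low counts edgeR called 1, 3 and 17 of the 237 families, where it called 0.393%, 0.957% and 2.5% of all 5850 small RNAs. The 1 was RF00669, lower after 1 day, and the 3 were SNORD30, higher after 3 days, and 5.8S ribosomal RNA and RF01849 (transfer-messenger RNA of alphaproteobacteria), lower. Of the 17 after 7 days, 10 were higher, among them U6, 7SK, SNORD30, SNORD101 and the mir-24 family, and 7 were lower, among them the mir-192 and mir-194 families. The 5 by DESeq2 were SNORD30 and SNORD73, higher after 7 days, and RF00701, RF00702 and RF00919, lower. The smallest adjusted p of a family by edgeR was 0.847, 0.565 and 0.470.

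Between weaned groups edgeR called 0 families for 3 days against 1 day, 0 for 7 days against 1 day and 0 for 7 days against 3 days, with 0% of all small RNAs in each. The unadjusted p was under 0.05 in 5, 37 and 27 families, against 4.81%, 10.1% and 7.38% of all small RNAs. DESeq2 called 0, 16 and 2 families (1.1%, 2.36% and 0.652% of all small RNAs), and limma-voom 0, 0 and 0 (0%, 0.448% and 0.448%). Without the filter edgeR called 2, 14 and 15 families, where it called 0.803%, 2.55% and 2.17% of all small RNAs. Among all 4 groups edgeR called 0 families (0% of all small RNAs) and had 30 at an unadjusted p under 0.05 (7.13% of all small RNAs), where DESeq2 called 7 (1.63%) and limma-voom 0 (0.285%). Without the filter it called 23, and 4.67% of all small RNAs.

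Counts of families whose groups did not overlap were uneven. After 7 days, 50 of 222 families (22.5%) lay above feeding in every library and 9 (4.05%) below, where all 2453 small RNAs gave 8.68% and 4.53%. After 1 day the counts were 17 above and 13 below, against 5.5% and 2.32% of all small RNAs, and after 3 days they were 4 above and 7 below, against 3.91% and 2.85%. For 7 days against 1 day there were 53 above and 22 below, against 10.8% and 9.25% of all small RNAs. For 7 days against 3 days there were 25 and 5, against 5.01% and 4.32%, and for 3 days against 1 day 7 and 12, against 4.32% and 5.46%. Without weaned 3 days replicate 1 these became 74 and 27 (14.1% and 12.4% of all small RNAs) for 7 days against 3 days, 16 and 43 (10.4% and 10.7%) for 3 days against 1 day, and 14 and 24 (10.6% and 5.54%) for 3 days against feeding. Without weaned 7 days replicate 1 they were 85 and 31 (20.7% and 11.6%) for 7 days against 1 day, and 57 and 11 (12% and 6.03%) for 7 days against 3 days. Families higher on average after 7 days than in feeding were 159 of 222 (71.6%), with a median log2 difference of 0.66, where 59.5% of all small RNAs were higher with a median of 0.32.

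Scaling moved this split. Without TMM factors, by the totals of named small RNAs, 89 families lay above and 3 below feeding after 7 days (19.1% and 1.1% of all small RNAs), where the median log2 difference of all small RNAs was 0.92 in place of 0.32. By the totals of all counts it was 60 above and 5 below (12.1% and 1.71% of all small RNAs), with a median of 0.56. Without weaned 7 days replicate 1 the counts were 74 above and 11 below, where 16.9% and 5.58% of all small RNAs did not overlap. The scalings without TMM factors each shifted the median of all small RNAs by more than 0.1. The excess of families above feeding is thus a statement relative to the other small RNAs of the same library. Those other small RNAs did not need a count in every library, so the shares set side by side come from sets unlike in detection. The part of detection in the excess was not tested.

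The 50 families above feeding after 7 days held 11 nucleolar families, U6 and U6atac, 7SK, 3 microRNA precursor families (mir-92, mir-24 and lin-4) and 33 unnamed ones. The lin-4 family (RF00052) holds the precursors of miR-125 in vertebrates, and was 17.5, 13.0 and 17.0 normalised CPM in feeding and 77.6, 36.4 and 35.8 after 7 days. Its log2 difference was 1.66 ± 0.52 (SE), with an adjusted p of 0.470 by edgeR. The mir-24 family (RF00178) was 566 to 701 in feeding and 5035, 1209 and 748 after 7 days, at a log2 difference of 1.87 ± 0.59 (SE) with an adjusted p of 0.470 by edgeR, 0.0206 by edgeR without the filter on low counts and a range of 0.0206 to 0.6775 over all alternatives. The difference was 0.61 without weaned 7 days replicate 1. RF00722, unnamed, had an excess of the same kind, with 3627, 658 and 342 after 7 days and 208 to 413 in feeding, at a log2 difference of 2.33 ± 0.75 (SE) that was 0.70 without that library. Its adjusted p by edgeR was 0.470, and 0.00249 without the filter on low counts, with a range of 0.00249 to 0.6775 over all alternatives. The 9 below feeding were the mir-8, mir-194 and mir-103 families and 6 unnamed ones.

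Other families came up for their small p or large spread. RF00592, unnamed, was 5.51, 4.13 and 2.39 normalised CPM in feeding, 1.79, 0.835 and 0.910 after 1 day, 3.20, 0.572 and 17.9 after 3 days, and 23.3, 56.5 and 26.2 after 7 days. Its 1-day group lay wholly below feeding and its 7-day group wholly above every other group. The log2 difference of 7 days against 1 day was 4.90 ± 1.11 (SE), with an adjusted p of 0.441 by edgeR, 0.000267 by edgeR without the filter on low counts and 3.21e-05 by DESeq2, and a range of 3.21e-05 to 0.570 over all alternatives. The mir-7 family (RF00053), whose microRNA is known from endocrine cells, was 132, 136 and 143 after 3 days and 1116, 465 and 189 after 7 days. Its log2 difference was 2.10 ± 0.56 (SE) with an adjusted p of 0.632 by edgeR, 0.0333 by edgeR without the filter on low counts and a range of 0.0333 to 0.850 over all alternatives, and it was 1.25 without weaned 7 days replicate 1. RF00746, unnamed, varied little within groups, with 69.2, 86.7 and 101 in feeding, 90.6, 93.9 and 126 after 1 day, 53.3, 56.7 and 35.6 after 3 days, and 107, 104 and 94.8 after 7 days. All 3-day libraries of it lay below the other 9, and its log2 difference from feeding was -0.82 ± 0.36 (SE), with an adjusted p of 0.565 by edgeR.

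Single libraries set several of the largest differences. RF00669, unnamed, was 356 normalised CPM in feeding replicate 3, 242 in weaned 3 days replicate 2 and 0.368 to 1.94 in the other 10. Its log2 difference of 1 day against feeding, -7.58 ± 2.70 (SE), with an adjusted p of 0.847 by edgeR, was -0.73 without feeding replicate 3. Without the filter on low counts edgeR gave it an adjusted p of 1.01e-11, the one family called for 1 day, and the range was 1.01e-11 to 1 over all alternatives. RF00654 was 8.32 in weaned 1 day replicate 1 and 0.0672 to 0.509 in the other 11, and its log2 difference of 3.66 ± 1.59 (SE) was 0.35 without that library. RF02162 was 5.56 in weaned 3 days replicate 1 and at most 1.12 elsewhere. RF00493 was 13.0 in the same library and 0.659 to 3.47 elsewhere, and its 3-day log2 difference of 2.76 ± 1.12 (SE) was 0.72 without it. RF00683 was 118 in weaned 1 day replicate 1 and 1.18 to 32.4 in the other 11, at a log2 difference from feeding of 1.78 ± 0.97 (SE), and of 0.60 without that library. RF01942 had 2.49, 5.97 and 0.574 in feeding and 1.05, 0.139 and 0.749 after 1 day, at -2.21 ± 1.19 (SE), and -1.29 without feeding replicate 2. With the filter, 0 of these 5 differences passed the threshold, at adjusted p of 0.847 for 1 day and 0.565 for 3 days by edgeR.

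The library in which a family was highest was weaned 7 days replicate 2 for 56 of the 237 families, weaned 7 days replicate 1 for 46 and weaned 3 days replicate 1 for 44, which makes 146 in 3 of the 12 libraries. Weaned 3 days replicate 2 was the lowest library for 45 families, weaned 7 days replicate 1 for 43 and weaned 3 days replicate 1 for 39. Weaned 3 days replicate 1 and weaned 7 days replicate 1 were thus often at the top for some families and at the bottom for others, while weaned 7 days replicate 2 was lowest for 3 families and weaned 3 days replicate 2 highest for 15. Named microRNA precursor families were highest in weaned 7 days replicate 1 in 10 of 22 cases and lowest there in 7, and nucleolar families were highest there in 7 of 31 and lowest in 3.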

How the data were processed

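Small RNA counts of 12 libraries were read from the deposited table, per the file headers whole-number counts for each named small RNA. The deposited TPM column equals CPM over the library's own list within 0.005, so the counts were used. The genome build was Sscrofa11.1, per the submitters' processing notes, and no source used here gives the aligner, the counting tool or the rule for a read with several matches. A small RNA missing from a library's list was entered as 0. PCR copies cannot be told apart.

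Totals of exon, intron and intergenic reads (19.96% to 62.17% of a library) name no small RNA and stayed out of the tests, which leaves 10453953 to 21031457 named counts a library. edgeR 4.0.16 (R 4.3.3) was run on 2453 small RNAs kept by filterByExpr (minimum count 10, minimum total 15), with TMM factors, 4 group means and the quasi-likelihood test, two-sided. The biological coefficient of variation was 129%, and 59.6% in the fit of known microRNAs and Rfam families alone. Adjustment was by Benjamini-Hochberg within each contrast, at a threshold of 0.05. The script was tested on simulated data. DESeq2 1.42.0, limma-voom (limma 3.58.1), other scalings, no filter, a fit of known microRNAs and Rfam families, a fit of only the groups compared, and leaving out each library were alternatives.

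Family names are Rfam's own for its numbers, taken from general knowledge. Lists of ribosomal, transfer, spliceosomal, nucleolar and small particle RNA stand in the written design, while the microRNA precursor, bacterial and further nucleolar lists were added after values were seen. The families and lists were chosen with earlier results of these data known. Families named are the 12 most counted, all of the lists in the design, the 5 of smallest p in each contrast against feeding and the 3 in other tests, the 5 of largest coefficient of variation, and the 3 families on either side of the detection rule. Others were named after their values were seen. Ribosomal families of archaea and microsporidia, which are on the lists in the design, are not described singly. Replicates were numbered in accession order and pair nothing.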

Additional observations from a re-analysis of the deposited data

How the results depend on the processing

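No paired analysis was made because the labels state no pairing between groups. Without the filter on low counts, edgeR called 1 family for 1 day, 3 for 3 days and 17 for 7 days against feeding. Of all small RNAs it called 0.393%, 0.957% and 2.5%. It called 2 for 3 days against 1 day, 14 for 7 days against 1 day and 15 for 7 days against 3 days. There all small RNAs gave 0.803%, 2.55% and 2.17%. Among the 4 groups it called 23 families (4.67% of all small RNAs). With the filter it called 0 families in each. DESeq2 called 5 for 7 days against feeding (1.71% of all small RNAs) and 16 for 7 days against 1 day (2.36%). It called 2 for 7 days against 3 days (0.652%), 7 among the groups (1.63%) and 0 for the rest (0.815% to 1.43%). The cause was not tested. The count stayed at 0 with limma-voom, with other scalings and with known microRNAs and Rfam families alone. In that last fit the smallest adjusted p of a family by edgeR was 0.0536, for 7 days against 1 day. The count also stayed at 0 in fits of only the groups compared and without any 1 library. The 24 log2 differences compared for direction were those of smallest p in each contrast, chosen in these same libraries. A kept direction was thus largely set by that choice and is not separate support. With 479 values over all alternatives, the 24 kept their direction in each. Of these values 15 passed the threshold, 6 by DESeq2 and 9 by edgeR without the filter, the latter chosen for single families after seeing the data, as was the fit of only the groups compared. As a share of named counts the families held 15.4% in place of 10.4% of all counts, and the small particles 0.452% in place of 2.87% of the families' counts. Families of a few counts a library are limited by depth, since counting error alone is large there.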
